A study of Mus musculus with 9 samples.

Results

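The genes described are 48 genes of nucleolar ribosome biogenesis, taken from a list of names, in sorted and isolated cells of the mouse stomach. Each was measured by the probe set that the array's annotation pairs with that gene alone, and where a gene had several, by the one with the highest mean over the 9 arrays. Of the 48, 47 had such a probe set, out of 18193 genes with one. The exception was Mrto4, whose probe set also names 2 pseudogenes. All 47 passed the filter on low signals, which asks for 3 or more arrays with a signal over that array's median, and were among the 11006 genes tested. Of these 47, 4 (Polr1b, Rrp9, Utp20 and Nob1) had 1 array below its array median. The values are read as log2 signals, a scale inferred from the values themselves, and every difference and fold rests on it.

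The study hybridised total RNA from C57BL/6 mice to Affymetrix arrays, 1 array a sample, in 3 groups of 3. Chief arrays hold RNA of Mist1+Tomato+ cells from the corpus, sorted by flow cytometry, with no treatment named in the labels. Isthmus arrays hold RNA of the same kind of sorted cells once Lgr5+ cells had been ablated, and parietal arrays that of gastric parietal cells. Mist1 (gene Bhlha15) drives the secretory architecture of zymogenic cells, and Tomato is a red fluorescent reporter. Not given in the sources used here were the alleles, the means of ablation, the age and sex of the mice, how parietal cells were collected, and whether samples of a group came from separate animals. Each p-value is thus set against sample-to-sample spread that may be technical.

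Ribosomes are built in the nucleolus. RNA polymerase I copies the ribosomal DNA into a long precursor, small nucleolar ribonucleoproteins (snoRNPs) guide its modification and early cleavage, and assembly factors fold and cut it into the small and the large subunit. Cells that grow and divide make many ribosomes, and the gastric isthmus is the zone of the gland where dividing progenitors lie. Acid-secreting parietal cells and mature enzyme-secreting chief cells divide rarely.

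The labels were checked against markers. Lgr5, the receptor by which cells were ablated, read 8.05, 7.54 and 9.36 log2 on the chief, 2.93, 4.83 and 5.97 on the isthmus and 4.62, 6.26 and 4.0 on the parietal arrays. All isthmus arrays lay below their array medians, so that the isthmus mean was at least 4.48-fold below the chief mean, a difference not called by limma (adjusted p = 0.0917). Bhlha15, which encodes Mist1, read 10.75, 10.05 and 9.20 on the chief arrays but 5.03, 1.34 and 7.36 on the isthmus arrays, where 2 of 3 lay below the array median although the cells are labelled Mist1+ (adjusted p = 0.123). Gastric intrinsic factor, Cblif, ran from 14.28 to 14.79 on the chief, 10.85 to 12.04 on the isthmus and 8.43 to 10.32 on the parietal arrays. The zymogen Pgc was at 14.63 to 14.92 in the chief arrays and at most 14.09 elsewhere, and the proton pump subunits Atp4b and Atp4a were at 14.09 to 14.35 and 14.03 to 14.32 in the parietal arrays and at 11.97 to 12.80 and 12.09 to 13.75 on the other 6. Of the 10 parietal markers, 8 were called lower in the isthmus than in the parietal arrays, against 12.2% of all genes. Slc26a7, an anion exchanger, lay below the array median on all 6 chief and isthmus arrays (4.76 to 6.32). On the parietal arrays it was at 11.68 to 12.06. The summed signal of the 10 was 39500 to 55500 in the chief, 32200 to 51100 in the isthmus and 99300 to 114000 in the parietal group. Mki67, the Ki-67 antigen of dividing cells, was at 12.22 to 13.08 on the chief and isthmus arrays and at 8.0 to 8.28 on the parietal arrays. For this marker the chief arrays thus lay with the isthmus arrays, although mature chief cells divide rarely. Connective tissue transcripts were far higher on chief replicate 3 than elsewhere, the summed linear signal of 6 fibroblast markers being 171 to 25800 in the chief group, 62.4 to 160 in the isthmus group and 148 to 337 in the parietal group. Those of 7 endocrine markers summed to 40800 to 78600, 18800 to 42500 and 458 to 693, and those of 7 pit and neck cell markers to 117000 to 149000, 78500 to 93600 and 55900 to 63700, in the chief, isthmus and parietal group. All 7 pit and neck markers were called lower in the parietal and 4 in the isthmus than in the chief arrays. Of all genes, 13.5% and 1.26% were. The erythroid Hbb-b2 was called at least 32.4-fold lower in the isthmus and 40.3-fold lower in the parietal than in the chief group. It was the only 1 of 3 erythroid markers tested that was called, and Hba-a2 differed by only -0.16 and -0.45. The part of these in the nucleolar differences was not tested. In RNA from many cells, fewer cells of a type and less RNA per cell cannot be told apart.

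Of the genes, 13 share a short sequence before their start that the choice of genes did not use, and 3 of these stretches are shown because their genes were called higher in the isthmus than in the parietal arrays with the lowest adjusted p-values of the 13. They are the 250 bases before the gene start, 5′ to 3′ on the gene's strand, from RefSeq on build GRCm38.p6, with the match to CCGGAAG, a core letter pattern of ETS-family binding sites, in capitals on whichever strand it lay.
Gar1 (chr3:129831397-129831646, minus strand): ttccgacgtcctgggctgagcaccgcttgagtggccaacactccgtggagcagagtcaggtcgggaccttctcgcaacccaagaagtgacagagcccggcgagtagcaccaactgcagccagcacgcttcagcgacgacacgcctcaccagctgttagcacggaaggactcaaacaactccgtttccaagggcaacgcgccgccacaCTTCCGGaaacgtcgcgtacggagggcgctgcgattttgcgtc
Nhp2 (chr11:51619523-51619772, plus strand): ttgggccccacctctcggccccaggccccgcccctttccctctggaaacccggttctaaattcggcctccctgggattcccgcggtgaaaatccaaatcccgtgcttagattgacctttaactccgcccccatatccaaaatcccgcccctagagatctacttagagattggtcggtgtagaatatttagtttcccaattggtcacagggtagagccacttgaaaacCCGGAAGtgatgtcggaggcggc
Heatr1 (chr13:12395125-12395374, plus strand): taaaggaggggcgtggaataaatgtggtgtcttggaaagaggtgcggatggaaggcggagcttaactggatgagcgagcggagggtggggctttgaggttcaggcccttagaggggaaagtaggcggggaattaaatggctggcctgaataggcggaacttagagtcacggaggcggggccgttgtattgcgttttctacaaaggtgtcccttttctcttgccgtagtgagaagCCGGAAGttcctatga
The match began 43, 23 and 16 bases before the start of Gar1, Nhp2 and Heatr1.

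Promoter sequences were available for 41 of the 48 genes, and 40 of them were among the genes tested. CCGGAAG stood on either strand in 13 of these 40 (32.5%), against 16.3% of the 8972 tested genes with a sequence and 6.9% of all 32851 promoters. The other holders were Bms1, Brix1, Ddx10, Ltv1, Nip7, Nolc1, Nop2, Polr1c, Utp18 and Utp4. CACGTG, the E-box that Myc proteins can bind, stood in 2 of the 40 (5.0%), Nop2 and Utp18, against 10.2% of the tested genes. GCATGCGC, a core of NRF1 sites, stood in 2 (5.0% against 5.2%), CCAAT in 14 (35.0% against 40.5%) and TATAAA in 2 (5.0% against 8.0%). The median GC content was 60.0% both for these genes and for the promoters of tested genes. The 5 patterns were searched on both strands, and none holds another. A match is a description of letters, not a bound site, and a missing match says only that the letters are not in this window.

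As a group, the nucleolar genes were highest in the isthmus arrays and, on the scale as deposited, lowest in the parietal arrays. Which of the parietal and chief groups was lower depended on the scaling. The median parietal minus chief difference of these genes turned when each array was centred on its median signal. The isthmus mean was the highest of the 3 group means for 44 of 47 genes, where 35.0% of all genes tested had it highest, and the parietal mean was the lowest for 41, against 42.9% of all genes. Measured from each gene's own mean over the 9 arrays, the median of the 47 genes was 0.65, 0.49 and 0.53 on the isthmus arrays, -0.09, -0.01 and 0.23 on the chief arrays and -0.36, -0.56 and -0.46 on the parietal arrays. The 3 groups did not overlap in this median. Over all genes tested, the same median lay between -0.03 and 0.09 on every array. The isthmus arrays had 44, 37 and 45 of the 47 genes above their own means, and the parietal arrays 11, 6 and 7. Replicates of a group were spread by a median SD of 0.39 in the chief, 0.34 in the isthmus and 0.40 in the parietal group, against 0.53, 0.47 and 0.42 over all genes. Chief replicate 1 was the lowest chief array for 25 of the 47 genes.

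**Figure D1:**
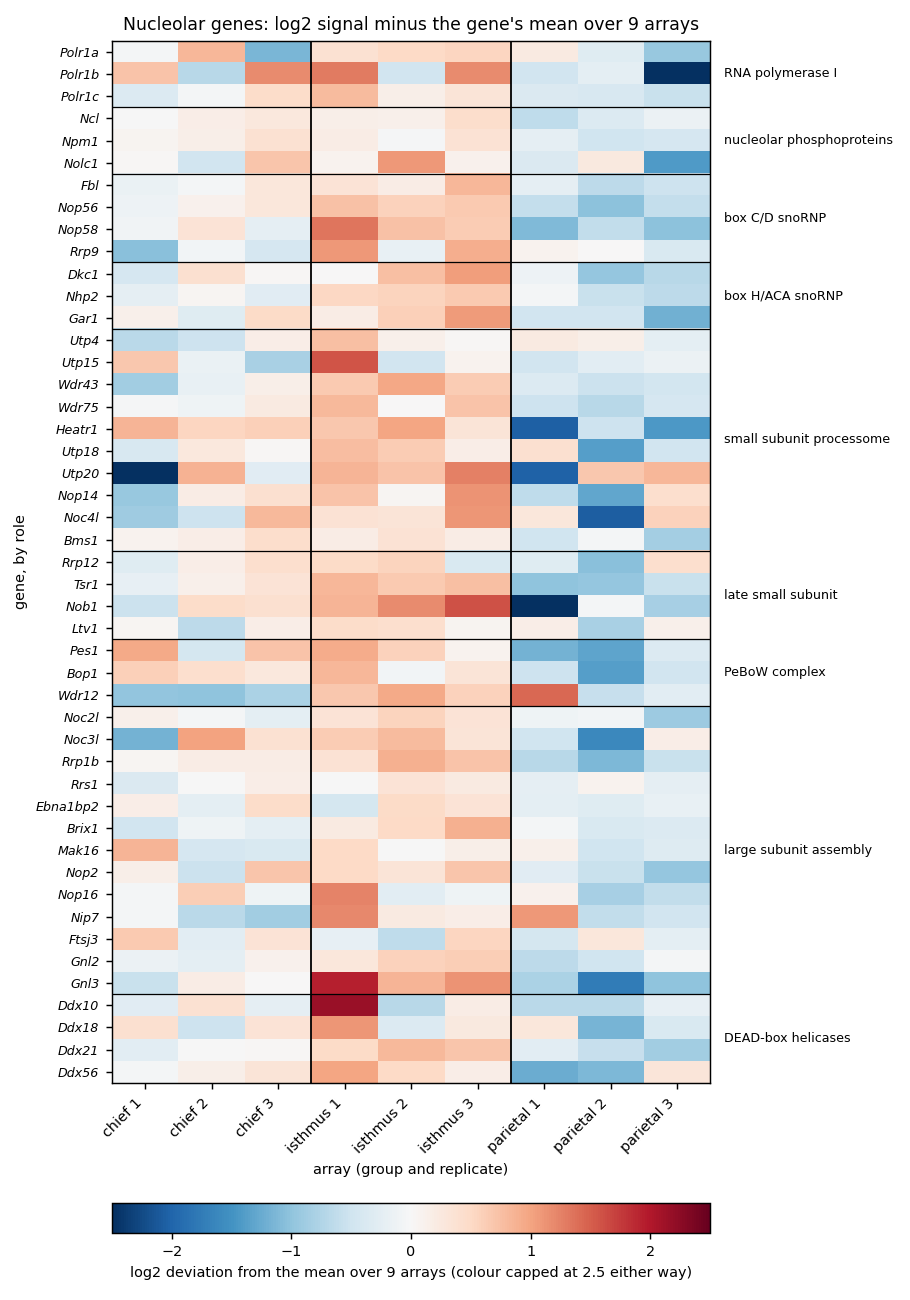
Heat map of the 47 nucleolar genes (rows, ordered by role) on the 9 arrays (columns), coloured by log2 signal minus the gene's mean over the 9 arrays, red above and blue below. Most rows are red on the 3 isthmus arrays, where 37 to 45 genes lie above their own mean, and blue on the 3 parietal arrays, where 6 to 11 do.

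**Figure D2:**
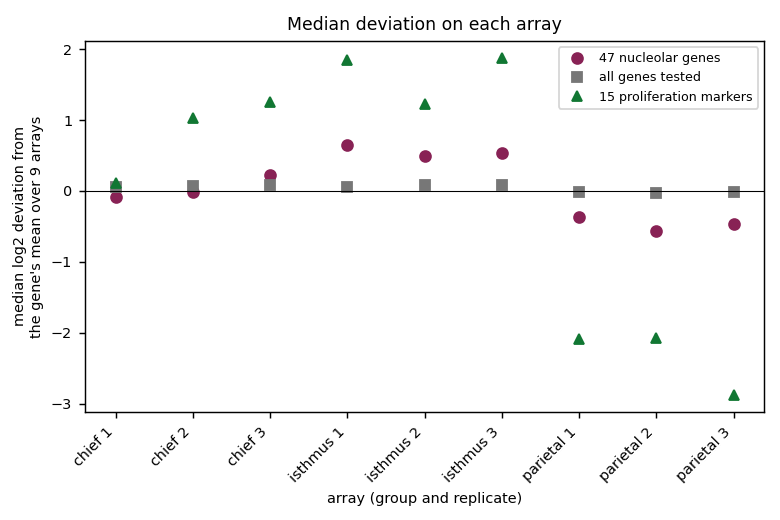
Median log2 deviation from each gene's mean over 9 arrays (vertical axis) on each array (horizontal axis) for the 47 nucleolar genes (circles), all genes tested (squares) and 15 proliferation markers (triangles). The nucleolar genes lie at 0.49 to 0.65 on the isthmus and at -0.56 to -0.36 on the parietal arrays, while all genes stay between -0.03 and 0.09.

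Proliferation markers moved with them. By limma (adjusted p under 0.05), 14 of 15 tested were higher in the isthmus than in the parietal arrays (15.4% of all genes) and 0 lower (12.2%). In the parietal against the chief arrays 12 were lower (13.5% of all genes) and 0 higher (10.7%). Between isthmus and chief 0 of the 15 were called (1.65% of all genes), though all 15 differences were above 0 (51.9% of all genes). The median deviation of these markers was 1.84, 1.22 and 1.88 on the isthmus, 0.11, 1.03 and 1.26 on the chief and -2.08, -2.07 and -2.88 on the parietal arrays. The part of cell division in the nucleolar differences was not tested. On the parietal arrays Bub1 was at 0 on 1 array and below the array median on all 3.

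The isthmus and parietal arrays were compared first, since the difference was largest there. Of the 47 genes, 21 were called higher in the isthmus arrays and 0 lower, which is 44.7%, where 27.5% of all genes tested were called, 15.4% higher and 12.2% lower (limma, Benjamini-Hochberg adjusted p under 0.05). At an unadjusted p under 0.05, 27 were higher (57.4%, against 21.4% of all genes) and 0 lower (17.3%). All 47 differences were above 0, where 53.4% of all genes were, from 0.03 for Ftsj3 to 2.52 for Nob1, with a median of 0.99 against 0.09 over all genes. Every isthmus array lay above every parietal array for 26 of the 47 (55.3%), against 24.0% of all genes, and below for 0 (20.3%). The called genes came from each of the 9 roles, and the snoRNP genes were the most often called, 6 of 7. After each array was centred on its own median signal, which moved the median of all genes to -0.22, 10 of the 21 calls were kept and the median of the nucleolar genes was 0.68. Centring shifts all genes of an array alike, so the 0.90 between both medians is fixed by its construction. Without isthmus replicate 3, 13 genes were called.

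Between isthmus and chief arrays no nucleolar gene was called by limma (lowest adjusted p 0.112, for Gnl3), where 1.65% of all genes were called, 0.391% higher and 1.26% lower, a share at which 0 of 47 is near the background. At an unadjusted p under 0.05, 11 were higher (23.4%, against 8.28% of all genes) and 0 lower (9.11% of all genes). The difference was above 0 for 44 of 47 and at or below 0 for Npm1, Bop1 and Ftsj3, where 51.9% of all genes were above 0. The median was 0.51, against 0.03 for all genes. For 14 genes every isthmus array lay above every chief array (29.8%, against 10.6% of all genes), and for 0 below (10.5%). Centring each array moved the median of all genes to 0.41 and that of the nucleolar genes to 0.89, and Nhp2, Tsr1 and Ddx21 were then called (adjusted p = 0.0478, 0.0421 and 0.0367).

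Between parietal and chief arrays, 9 of the 47 were called lower (19.1%) and 0 higher, where 24.2% of all genes were called, 13.5% lower and 10.7% higher. The difference was above 0 for 6 genes and below 0 for 41, where 46.0% of all genes were above 0, with a median of -0.49 against -0.10 for all genes, and the groups did not overlap for 14 lower genes (29.8%, against 21.2% of all genes) and for 1 higher gene, Wdr12 (18.7% of all genes). Quantile normalization kept 7 of the 9 calls, but the direction did not hold under each scaling of the arrays. Centring each array on its median moved the median of all genes to 0.59 and that of the nucleolar genes to 0.21, so that it turned, and 8 of the 9 calls ended. Without chief replicate 3, the array with high connective tissue transcripts, 4 genes were called lower, without parietal replicate 1 or parietal replicate 2 it was 5, and without both chief replicate 3 and parietal replicate 1 it was 2. All 3 comparisons share arrays, so they are not separate evidence.

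**Figure D3:**
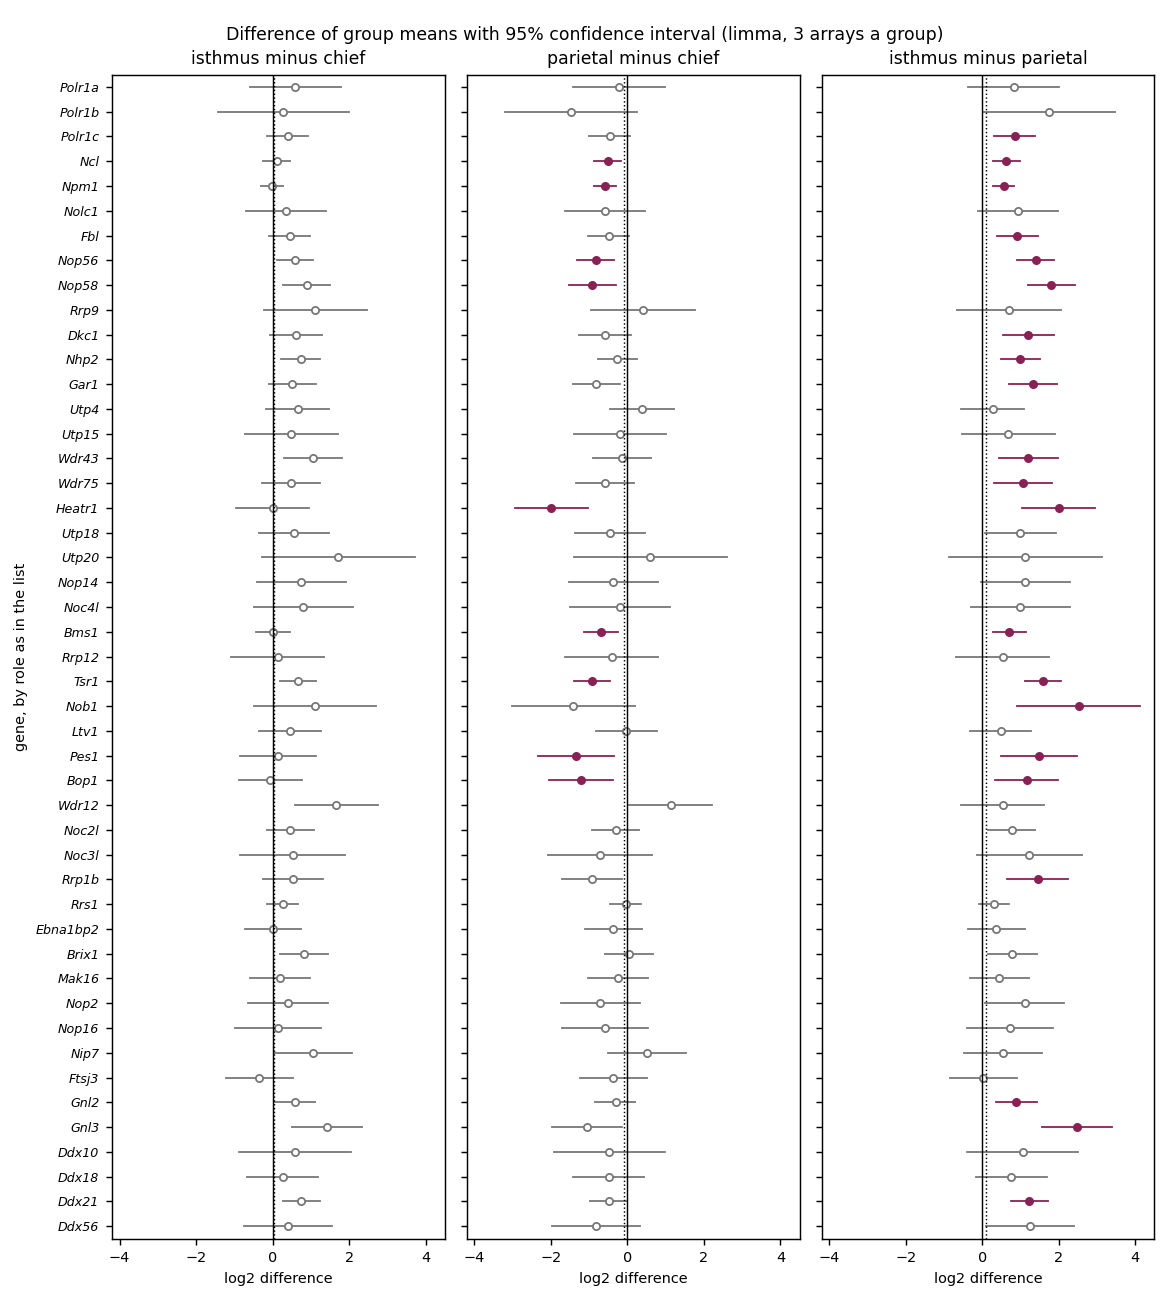
Log2 difference of group means (points) with its 95% confidence interval (lines) for each of the 47 genes in the 3 comparisons, filled where the limma adjusted p is under 0.05, with dotted lines at the median of all genes tested. In isthmus minus parietal all 47 points lie above 0 and 21 are filled, in parietal minus chief 9 are filled and all of these lie below 0, and in isthmus minus chief none is filled.

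**Figure D4:**
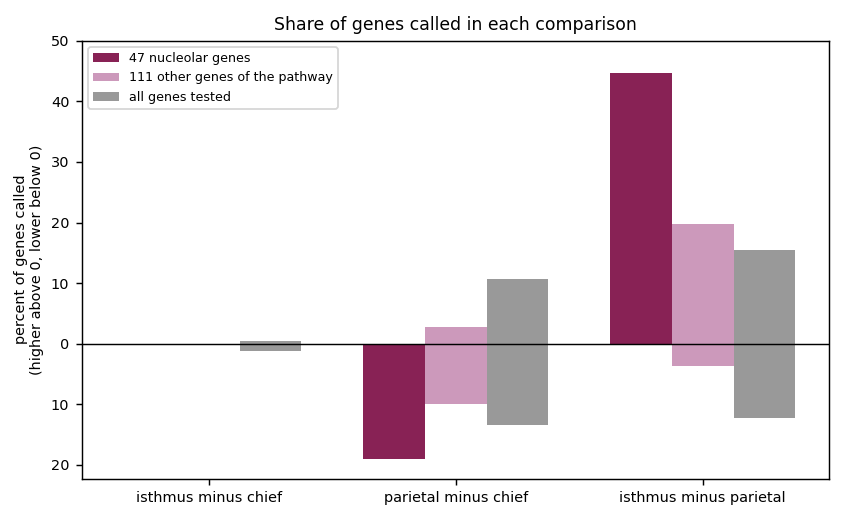
Percent of genes called higher (bars above 0) and lower (bars below 0) in each comparison for the 47 nucleolar genes, 111 other genes of ribosome biogenesis and all genes tested. The nucleolar genes reach 44.7% higher in isthmus minus parietal, where the other genes of the pathway reach 19.8% and all genes 15.4%.

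The snoRNPs that carry box C/D RNAs methylate ribose in the precursor. Nop58, one of their core proteins, was at 10.77, 11.21 and 10.63 in the chief, 12.20, 11.59 and 11.49 in the isthmus and 9.76, 10.25 and 9.84 in the parietal arrays (log2 signals, replicates 1 to 3). Each isthmus array lay above each chief array and each chief array above each parietal array. Its isthmus mean lay 3.51-fold above that of the parietal arrays (log2 difference 1.81, SE 0.28; adjusted p = 0.000491), Nop58 was 1.89-fold lower in the parietal than in the chief arrays (log2 difference -0.92, SE 0.28; adjusted p = 0.0313) and the isthmus minus chief difference of 0.89 (SE 0.28) was not called (adjusted p = 0.132). Nop56, its partner in the same particle, was at 11.09, 11.32 and 11.50 in the chief, 11.96, 11.80 and 11.88 in the isthmus and 10.62, 10.19 and 10.62 in the parietal arrays, and its 3 groups did not overlap either. The isthmus mean was 2.65-fold above the parietal mean (log2 difference 1.40, SE 0.22; adjusted p = 0.000531) and its parietal mean lay 1.77-fold below that of the chief arrays (log2 difference -0.83, SE 0.22; adjusted p = 0.0164). Fbl, fibrillarin, the methyltransferase itself, was at 11.06, 11.18 and 11.51 in the chief, 11.57, 11.42 and 12.07 in the isthmus and 11.00, 10.57 and 10.72 in the parietal arrays. Its parietal arrays lay below the other 6, and isthmus and chief arrays overlapped. Fbl was 1.9-fold higher in the isthmus than in the parietal arrays (log2 difference 0.92, SE 0.24; adjusted p = 0.0135), while the difference from chief to parietal arrays missed the threshold (-0.49, adjusted p = 0.172). Rrp9, a protein of the snoRNP for the first cleavages, was at 6.23, 7.22 and 6.86 in the chief, 8.37, 7.10 and 8.18 in the isthmus and 7.37, 7.28 and 6.90 in the parietal arrays. Its groups overlapped in all 3 comparisons and none was called (lowest adjusted p 0.395).

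The isthmus to parietal call of Nop56 held under each of the 22 alternatives run, and that of Nop58, which has 1 probe set, under the 20 that do not change the probe set. That of Fbl ended without isthmus replicate 3 (adjusted p = 0.0672), without parietal replicate 2 (0.0519) and after centring. The parietal to chief call of Nop58 ended without chief replicate 2 (adjusted p = 0.106), parietal replicate 1 (0.0933) or parietal replicate 3 (0.09), after centring (0.648), without the intensity trend (0.0673) and with only these groups in the model (0.0511). That of Nop56 ended without chief replicate 3 (adjusted p = 0.058) or parietal replicate 2 (0.0652), after centring (0.72) and by its second probe set (0.0616).

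The box H/ACA snoRNPs turn uridine into pseudouridine. Gar1, one of their core proteins, was at 11.83, 11.41 and 12.20 in the chief, 11.89, 12.31 and 12.78 in the isthmus and 11.24, 11.23 and 10.52 in the parietal arrays. The isthmus arrays overlapped the chief arrays, and all parietal arrays lay below both. On average the isthmus arrays read 2.51-fold above the parietal arrays (log2 difference 1.33, SE 0.29; adjusted p = 0.00401), a call kept under the 20 alternatives that bear on a gene with 1 probe set. Against the chief arrays the parietal mean was 0.82 lower, just outside the threshold (adjusted p = 0.0542, and 0.0338 to 0.76 over the alternatives), and the call was made without chief replicate 2 (0.0338), without isthmus replicate 1 (0.0474) or 3 (0.0485), after quantile normalization (0.0354) and with a floor or a pseudocount. Nhp2, also of the core, was at 10.90, 11.18 and 10.84 in the chief, 11.64, 11.68 and 11.79 in the isthmus and 11.07, 10.58 and 10.47 in the parietal arrays, with every isthmus array above the other 6. The isthmus mean was 2.0-fold above the parietal mean (log2 difference 1.0, SE 0.23; adjusted p = 0.00673), a call that ended after centring (adjusted p = 0.0755), with the mean of its probe sets (0.0638) and by its second probe set (0.475). Dkc1, dyskerin, the pseudouridine synthase, was at 11.14, 11.96 and 11.59 in the chief, 11.57, 12.33 and 12.62 in the isthmus and 11.44, 10.60 and 10.87 in the parietal arrays. Parietal arrays lay below isthmus arrays, and chief arrays overlapped both. Its isthmus mean lay 2.3-fold above that of the parietal arrays (log2 difference 1.20, SE 0.31; adjusted p = 0.0119), a call that ended without isthmus replicate 3 (adjusted p = 0.058) or parietal replicate 2 (0.0512), by its second probe set (0.204) and without the intensity trend (0.0561), although its other 2 probe sets differed by 1.20 and 1.04 in the same direction.

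**Figure D5:**
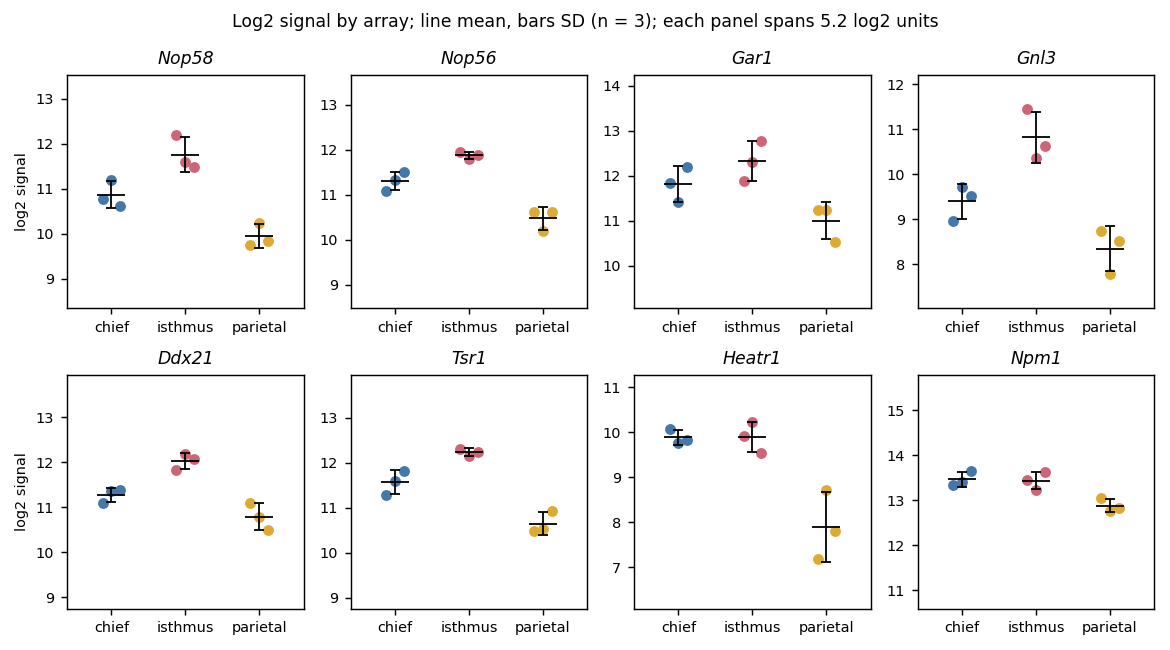
Log2 signal on each array (points) by group for 8 nucleolar genes, with the group mean (line) and SD (bars, n = 3). For Nop58, Nop56, Gnl3 and Tsr1 the 3 groups are apart, with the isthmus arrays highest and the parietal arrays lowest, and for Heatr1 and Npm1 the isthmus and chief arrays overlap.

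The genes of RNA polymerase I showed smaller or more scattered differences. Polr1c, a subunit shared with RNA polymerase III, was at 11.16, 11.45 and 11.95 in the chief, 12.29, 11.64 and 11.81 in the isthmus and 11.14, 11.09 and 10.94 in the parietal arrays. The parietal arrays lay below the other 6. Polr1c was 1.81-fold higher in the isthmus than in the parietal arrays (log2 difference 0.86, SE 0.25; adjusted p = 0.0206), a call that ended without isthmus replicate 1 (adjusted p = 0.0955) or parietal replicate 3 (0.0686), after centring (0.168), by its second probe set (0.0891) and without the intensity trend (0.0691). Polr1a, the largest catalytic subunit, was at 8.54, 9.42 and 7.44 in the chief, 8.97, 9.08 and 9.13 in the isthmus and 8.81, 8.28 and 7.64 in the parietal arrays. Only isthmus and parietal arrays were apart, and no comparison was called (adjusted p = 0.302 for isthmus minus parietal). Polr1b, its partner in the catalytic centre, was at 8.30, 6.89 and 8.78 in the chief, 8.89, 7.12 and 8.78 in the isthmus and 7.11, 7.35 and 5.10 in the parietal arrays. Parietal replicate 3 lay below its array median, groups overlapped in each comparison, and the parietal difference of 1.74 from the isthmus group was not called (adjusted p = 0.123).

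Ncl, Npm1 and Nolc1 are abundant phosphoproteins of the nucleolus. Npm1, nucleophosmin, was at 13.33, 13.41 and 13.64 in the chief, 13.45, 13.23 and 13.62 in the isthmus and 13.04, 12.76 and 12.83 in the parietal arrays. Every parietal array lay below the other 6, which overlapped. On average the parietal arrays read 1.5-fold below the chief arrays (log2 difference -0.58, SE 0.13; adjusted p = 0.00684) and the isthmus mean was 1.47-fold above the parietal mean (log2 difference 0.56, SE 0.13; adjusted p = 0.00763), calls that ended after centring (adjusted p = 0.605 and 0.261) and without the intensity trend in the model (0.109 and 0.113), and under no other alternative. Between isthmus and chief arrays the difference was -0.03, with a 95% confidence interval from -0.31 to 0.26. Ncl, nucleolin, was at 12.53, 12.71 and 12.80 in the chief, 12.69, 12.68 and 12.99 in the isthmus and 11.90, 12.20 and 12.39 in the parietal arrays, with every parietal array below the other 6. Its isthmus mean lay 1.54-fold above that of the parietal arrays (log2 difference 0.62, SE 0.16; adjusted p = 0.0125) and Ncl was 1.43-fold lower in the parietal than in the chief arrays (log2 difference -0.52, SE 0.16; adjusted p = 0.0352). The first call ended without isthmus replicate 3 (adjusted p = 0.0552) or parietal replicate 1 (0.0576), after centring (0.223) and without the intensity trend (0.0929). The second ended without chief replicate 2 (adjusted p = 0.0792), chief replicate 3 (0.107), parietal replicate 1 (0.141) or parietal replicate 2 (0.073), after centring (0.469), with no filter (0.0544), with the mean of its probe sets (0.298), by its second probe set (0.287), without the intensity trend (0.162) and with only these groups in the model (0.0543). Nolc1, a chaperone of snoRNPs, was at 9.80, 9.29 and 10.46 in the chief, 9.86, 10.85 and 9.88 in the isthmus and 9.41, 10.02 and 8.36 in the parietal arrays. Its groups overlapped in each comparison and none was called, and its other 2 probe sets differed between isthmus and chief by 2.08 and -1.75, in opposite directions.

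The small subunit processome is the large early assembly on the precursor. Heatr1, which helps to load it and to transcribe ribosomal DNA, was at 10.08, 9.76 and 9.83 in the chief, 9.91, 10.22 and 9.55 in the isthmus and 7.18, 8.71 and 7.80 in the parietal arrays. The parietal arrays lay below the other 6 and the isthmus and chief arrays overlapped. On average the parietal arrays read 3.98-fold below the chief arrays (log2 difference -1.99, SE 0.44; adjusted p = 0.00586) and the isthmus mean was 3.99-fold above the parietal mean (log2 difference 2.0, SE 0.44; adjusted p = 0.00493). These are values of 1 probe set, and no single array ended either call. The second probe set differed by 0.82 from chief to parietal, the opposite direction (adjusted p = 0.337), and by 0.83 from parietal to isthmus (0.325), and with the mean of its probe sets the parietal to chief call ended (0.166). One more probe set, above the array median on 4 of 9 arrays, differed by -1.51 and 3.59 in these comparisons.

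Bms1, a GTPase of the processome, was at 12.23, 12.31 and 12.59 in the chief, 12.34, 12.50 and 12.33 in the isthmus and 11.65, 12.09 and 11.29 in the parietal arrays, with all parietal arrays below the other 6. Its parietal mean lay 1.62-fold below that of the chief arrays (log2 difference -0.70, SE 0.20; adjusted p = 0.0245) and Bms1 was 1.64-fold higher in the isthmus than in the parietal arrays (log2 difference 0.71, SE 0.20; adjusted p = 0.0196). The first call ended without chief replicate 3 (adjusted p = 0.0883), parietal replicate 1 (0.0637) or parietal replicate 3 (0.105), after centring (0.985), with the mean of its probe sets (0.0507), by its second probe set (0.25) and without the intensity trend (0.106). The second ended without isthmus replicate 2 (adjusted p = 0.0662), parietal replicate 1 (0.0528) or parietal replicate 3 (0.0869), after centring (0.217), with the mean of its probe sets (0.195), by its second probe set (0.762) and without the intensity trend (0.0912). Wdr43, of the subcomplex that binds the nascent precursor, was at 8.83, 9.51 and 9.85 in the chief, 10.35, 10.66 and 10.34 in the isthmus and 9.35, 9.16 and 9.24 in the parietal arrays. Each isthmus array lay above the other 6, and chief and parietal arrays overlapped. On average the isthmus arrays read 2.3-fold above the parietal arrays (log2 difference 1.20, SE 0.35; adjusted p = 0.0234), a call that ended without isthmus replicate 1 (adjusted p = 0.0508), isthmus replicate 2 (0.0798), isthmus replicate 3 (0.0515), parietal replicate 2 (0.0655) or parietal replicate 3 (0.0632) and after centring (0.0885). Its difference from the chief group, 1.05 (95% confidence interval 0.29 to 1.82), was not called (adjusted p = 0.154), and its second probe set differed by 1.64 from the parietal and 1.45 from the chief group. Wdr75, of the same subcomplex, was at 9.56, 9.50 and 9.83 in the chief, 10.40, 9.61 and 10.32 in the isthmus and 9.08, 8.90 and 9.18 in the parietal arrays, with parietal arrays below the other 6. The isthmus mean was 2.08-fold above the parietal mean (log2 difference 1.06, SE 0.35; adjusted p = 0.04). That call ended without isthmus replicate 1 (adjusted p = 0.131), isthmus replicate 3 (0.123), parietal replicate 1 (0.0854), parietal replicate 2 (0.106) or parietal replicate 3 (0.0763), after quantile normalization (0.086), after centring (0.178), with no filter (0.0626) and with the mean of its probe sets (0.135).

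The other 6 processome genes were Utp4, Utp15, Utp18, Utp20, Nop14 and Noc4l. None was called, and their isthmus minus parietal differences ran from 0.27 for Utp4 to 1.13 for Utp20 and for Nop14. Utp18 was called without parietal replicate 1, the parietal array on which it was highest at 10.51 (adjusted p = 0.0248). Utp20 had 1 low array in each of the chief and parietal groups, at 5.45 and 6.31, while its other 7 arrays lay at 8.05 to 9.61.

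Of the factors that finish the small subunit, Tsr1, a GTPase-like protein of late particles, was at 11.28, 11.60 and 11.82 in the chief, 12.31, 12.14 and 12.24 in the isthmus and 10.47, 10.52 and 10.93 in the parietal arrays. The 3 groups were apart, isthmus highest and parietal lowest. Its isthmus mean lay 3.01-fold above that of the parietal arrays (log2 difference 1.59, SE 0.22; adjusted p = 0.000186) and Tsr1 was 1.9-fold lower in the parietal than in the chief arrays (log2 difference -0.93, SE 0.22; adjusted p = 0.00773). The first call held under all alternatives but the second probe set (0.36, adjusted p = 0.572). The second ended after centring (adjusted p = 0.482), with the mean of its probe sets (0.0722), by its second probe set (0.646) and without both chief replicate 3 and parietal replicate 1 (0.0906). Nob1, the nuclease that makes the final cut at the end of the small subunit RNA, was at 7.18, 8.18 and 8.13 in the chief, 8.58, 8.91 and 9.32 in the isthmus and 4.67, 7.67 and 6.90 in the parietal arrays. Each isthmus array lay above the other 6, and parietal replicate 1 was below its array median. The isthmus mean was at least 4.38-fold above the parietal mean when that array is set to its median (log2 difference 2.52, SE 0.74; adjusted p = 0.0229), a call that ended without isthmus replicate 2 (adjusted p = 0.0568), isthmus replicate 3 (0.0774) or parietal replicate 1 (0.0754). Ltv1, of late particles, was at 10.04, 9.34 and 10.16 in the chief, 10.44, 10.40 and 10.05 in the isthmus and 10.16, 9.18 and 10.11 in the parietal arrays, and Rrp12, a factor of subunit export, at 7.70, 8.17 and 8.43 in the chief, 8.49, 8.57 and 7.63 in the isthmus and 7.70, 6.97 and 8.42 in the parietal arrays. The groups of both overlapped in every comparison and none was called.

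Pes1, Bop1 and Wdr12 form the PeBoW complex of large subunit assembly. Pes1 was at 10.47, 9.08 and 10.24 in the chief, 10.46, 10.11 and 9.62 in the isthmus and 8.35, 8.21 and 9.19 in the parietal arrays. Parietal arrays lay below isthmus arrays but overlapped the chief arrays. On average the isthmus arrays read 2.79-fold above the parietal arrays (log2 difference 1.48, SE 0.46; adjusted p = 0.0283) and the parietal mean was 2.54-fold below the chief mean (log2 difference -1.35, SE 0.46; adjusted p = 0.0477). The first call ended without isthmus replicate 1 (adjusted p = 0.103), isthmus replicate 2 (0.0705), parietal replicate 1 (0.082) or parietal replicate 2 (0.0923), after quantile normalization (0.0591), after centring (0.0945), with the mean of its probe sets (0.19), by its second probe set (0.861) and without the intensity trend (0.0511). The second ended when any single array other than chief replicate 2 or parietal replicate 3 was left out (adjusted p = 0.0534 to 0.149), and reached 0.89 over the alternatives. Bop1 was at 10.28, 10.10 and 9.95 in the chief, 10.52, 9.61 and 10.01 in the isthmus and 9.17, 8.30 and 9.20 in the parietal arrays, with parietal arrays below the other 6. Its isthmus mean lay 2.23-fold above that of the parietal arrays (log2 difference 1.16, SE 0.38; adjusted p = 0.0387) and Bop1 was 2.33-fold lower in the parietal than in the chief arrays (log2 difference -1.22, SE 0.38; adjusted p = 0.0344). The first call ended without isthmus replicate 1 (adjusted p = 0.146), isthmus replicate 3 (0.0834), parietal replicate 1 (0.0521), parietal replicate 2 (0.141) or parietal replicate 3 (0.0531), after quantile normalization (0.0756), after centring (0.167), with no filter (0.0599), with the mean of its probe sets (0.624) and with only these groups in the model (0.0548). The second ended without chief replicate 1 (adjusted p = 0.0836), chief replicate 2 (0.072), chief replicate 3 (0.0575) or parietal replicate 2 (0.126), after quantile normalization (0.0501), after centring (0.367), with no filter (0.0526) and with the mean of its probe sets (0.498). With the mean of its probe sets the isthmus minus parietal difference of Bop1 turned to -0.54, its second probe set being above the array median on 1 of 9 arrays.

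Wdr12, the remaining subunit, was at 8.20, 8.18 and 8.41 in the chief, 9.86, 10.15 and 9.77 in the isthmus and 10.64, 8.62 and 8.93 in the parietal arrays. Its chief arrays were the lowest, below all 6 others, and isthmus and parietal arrays overlapped. It had the only parietal group that lay wholly above the chief group, by 1.13 (adjusted p = 0.121), called after centring (0.0128). Its isthmus arrays lay 1.66 above the chief arrays (95% confidence interval 0.58 to 2.75; adjusted p = 0.117). The second probe set, however, differed by -0.54 for parietal minus chief, the opposite direction, and by 0.01 for isthmus minus chief.

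The large subunit assembly genes were the largest role, with 13 genes. Of these, 3 were called higher in the isthmus than in the parietal arrays (23.1%, against 15.4% of all genes). Gnl3, nucleostemin, a nucleolar GTPase known from stem and progenitor cells, was at 8.96, 9.71 and 9.53 in the chief, 11.46, 10.37 and 10.64 in the isthmus and 8.74, 7.78 and 8.52 in the parietal arrays. The 3 groups were apart, with isthmus highest and parietal lowest. On average the isthmus arrays read 5.57-fold above the parietal arrays (log2 difference 2.48, SE 0.42; adjusted p = 0.0009), a call kept under the 20 alternatives that bear on a gene with 1 probe set. Its isthmus arrays lay 1.42 above the chief arrays (95% confidence interval 0.51 to 2.34; adjusted p = 0.112), and its parietal arrays 1.05 below them (0.0893). Gnl2, a related GTPase, was at 10.87, 10.77 and 11.12 in the chief, 11.29, 11.58 and 11.62 in the isthmus and 10.36, 10.51 and 10.95 in the parietal arrays. Each isthmus array lay above the other 6. The isthmus mean was 1.85-fold above the parietal mean (log2 difference 0.89, SE 0.24; adjusted p = 0.0161), a call that ended without isthmus replicate 2 (adjusted p = 0.0526), isthmus replicate 3 (0.0586), parietal replicate 1 (0.0656) or parietal replicate 2 (0.0525), after centring (0.12), with the mean of its probe sets (0.387) and by its second probe set (0.104). Its other 2 probe sets differed by 1.37 and -0.45.

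Rrp1b, a nucleolar protein of precursor processing, was at 9.37, 9.51 and 9.51 in the chief, 9.69, 10.22 and 10.05 in the isthmus and 8.64, 8.21 and 8.77 in the parietal arrays, and its 3 groups were apart. Its isthmus mean lay 2.73-fold above that of the parietal arrays (log2 difference 1.45, SE 0.36; adjusted p = 0.00986), a call that ended with the mean of its probe sets (adjusted p = 0.31) and by its second probe set (0.311). Noc2l, of the complex that carries early large subunits out of the nucleolus, was at 10.78, 10.62 and 10.42 in the chief, 11.00, 11.21 and 11.00 in the isthmus and 10.55, 10.60 and 9.76 in the parietal arrays. Its isthmus arrays lay above the other 6, and the difference from the parietal group, 0.77, was just outside the threshold (adjusted p = 0.0637). With the mean of its probe sets it was called (1.20, adjusted p = 0.00909). Rrs1, which helps to place an RNP of the large subunit, was at 11.72, 12.07 and 12.25 in the chief, 12.08, 12.42 and 12.31 in the isthmus and 11.85, 12.17 and 11.86 in the parietal arrays. Its groups overlapped in each comparison, and the isthmus minus parietal difference of 0.31 had a 95% confidence interval from -0.09 to 0.71.

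Of the other 8 assembly genes, Brix1 and Nip7 had isthmus arrays that lay wholly above the chief arrays, by 0.82 and 1.06 (adjusted p = 0.18 and 0.266), and Noc3l, Brix1 and Nop2 had isthmus arrays wholly above the parietal arrays, by 1.23, 0.78 and 1.11 (0.17, 0.0658 and 0.109). Mak16, Nop16, Ebna1bp2 and Ftsj3 overlapped in all 3 comparisons. Ftsj3, a methyltransferase of the precursor, differed least between isthmus and parietal arrays, by 0.03, with a 95% confidence interval from -0.84 to 0.90.

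DEAD-box helicases unwind RNA during assembly. Ddx21, which acts in ribosomal DNA transcription and precursor processing, was at 11.09, 11.35 and 11.38 in the chief, 11.83, 12.17 and 12.06 in the isthmus and 11.09, 10.78 and 10.49 in the parietal arrays. Each isthmus array lay above the other 6, while chief and parietal arrays met at 11.09. Ddx21 was 2.35-fold higher in the isthmus than in the parietal arrays (log2 difference 1.23, SE 0.22; adjusted p = 0.0013), a call kept under each alternative run, and its second probe set differed by 1.29. Against the chief group the isthmus mean was 0.75 higher (95% confidence interval 0.27 to 1.23; adjusted p = 0.113). Ddx18 was at 11.36, 10.44 and 11.31 in the chief, 12.07, 10.61 and 11.21 in the isthmus and 11.25, 9.80 and 10.58 in the parietal arrays, Ddx10 at 7.84, 8.50 and 7.90 in the chief, 10.27, 7.42 and 8.30 in the isthmus and 7.44, 7.45 and 7.92 in the parietal arrays and Ddx56 at 8.32, 8.51 and 8.70 in the chief, 9.36, 8.86 and 8.53 in the isthmus and 7.13, 7.24 and 8.67 in the parietal arrays. The groups of these 3 overlapped in every comparison and none was called. By the probe set used, Ddx10 stood out by isthmus replicate 1 alone, at 10.27 where its other 8 arrays lay at 7.42 to 8.50. Its second probe set, above the array median on 7 of 9 arrays, had every isthmus array above every parietal array. The difference there was 1.76 and was not called. Ddx56 was called between isthmus and parietal arrays without parietal replicate 3 (adjusted p = 0.0414), and Ddx18 with the mean of its probe sets (0.0124) or with the replicate number as a block (0.0482).

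A gene's probe sets did not always go together. Of the 47 genes, 32 had further probe sets, 48 in all, and 40 of these lay above the array median on at least 3 arrays. Their isthmus minus parietal difference had the sign of the probe set used in 35 cases and the opposite sign in 5, and for the called genes in 20 of 22, the exceptions being probe sets of Rrp1b and Gnl2. For isthmus minus chief it was 31 and 9, and for parietal minus chief 25 and 15. Of the 21 genes called between isthmus and parietal arrays, 17 had a further probe set. By the second of these, 6 were called (Ncl, Npm1, Fbl, Nop56, Wdr43 and Ddx21), 9 were not, and for Wdr75 and Bop1 it failed the filter. Of the 9 called between parietal and chief arrays, 8 had one, by which Npm1 was called, 6 were not, and Bop1 was not tested. Whether probe sets read different transcripts was not tested.

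The wider pathway moved less uniformly. Over 5 lists of other ribosome biogenesis genes, 111 tested, 22 were called higher and 4 lower in the isthmus than in the parietal arrays (19.8% and 3.6%), where 15.4% and 12.2% of all genes were, and the median difference was 0.82. Between isthmus and chief, 0 of the 111 passed limma, 20 were higher and 4 lower at an unadjusted p under 0.05 (8.28% and 9.11% of all genes), and the median was 0.39. Between parietal and chief, 3 were higher (Polr1d, Imp4 and Nop10) and 11 lower, which is 2.7% and 9.91% and below the 10.7% and 13.5% of all genes, with a median of -0.36.

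Among the other small subunit genes, 7 of 37 (18.9%) were called higher in the isthmus than in the parietal arrays and 1 lower (2.7%). Of all genes, 15.4% and 12.2% were. Utp14a differed by 2.12 (adjusted p = 0.0153), a call that ended without isthmus replicate 1 (adjusted p = 0.0569), parietal replicate 1 (0.061) or parietal replicate 3 (0.0547), with the mean of its probe sets (0.186) and by its second probe set (0.983). Wdr46 differed by 2.12 (adjusted p = 0.00108) and Utp11 by 1.63 (0.000147). The helicase Dhx37 was at 6.97, 5.93 and 5.0 log2 on the isthmus arrays, 2 of them below the array median, and at 8.87, 8.35 and 10.18 on the parietal arrays. It was thus at least 6.19-fold lower in the isthmus group (adjusted p = 0.00491). Among the other large subunit genes, 5 of 40 were higher and 0 lower, 12.5% and thus below the 15.4% of all genes. Those with the largest differences were Pelp1 (2.16, adjusted p = 0.00625), of the complex that releases large subunits, Eif6 (1.85, 8.98e-05), which keeps the subunits from joining early, and Nmd3 (1.32, 0.00274), the export adapter. Of the alternatives run, the calls of Eif6 and Pelp1 ended by the second probe set alone (adjusted p = 0.381 and 0.149) and that of Nmd3 with the mean of its probe sets alone (0.186), while those of Wdr46, Utp11 and Dhx37 held under each in which they were tested.

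Of the other RNA polymerase I genes 3 of 11 were higher in the isthmus than in the parietal arrays and 1 lower. These are 27.3% and 9.09%, against 15.4% and 12.2% of all genes. Tcof1, treacle, differed by 2.26 (adjusted p = 0.0393), Polr1e by 1.87 (0.0242), Taf1d by 1.32 (0.0311) and Polr1d, a subunit shared with RNA polymerase III, by -0.73 (0.0136). The call of Tcof1 ended without isthmus replicate 1 (adjusted p = 0.0591), isthmus replicate 2 (0.084), isthmus replicate 3 (0.126), parietal replicate 1 (0.0703) or parietal replicate 3 (0.15), after quantile normalization (0.0784), after centring (0.055), with no filter (0.0609), without the intensity trend (0.0812) and with the replicate number as a block (0.0534). That of Polr1e ended without isthmus replicate 1 (adjusted p = 0.0866), parietal replicate 1 (0.051) or parietal replicate 3 (0.0906), after quantile normalization (0.0613), after centring (0.0631) and by its second probe set (0.291), and that of Taf1d without isthmus replicate 2 (adjusted p = 0.119), isthmus replicate 3 (0.0552), parietal replicate 1 (0.114) or parietal replicate 3 (0.0908), after quantile normalization (0.0558) and after centring (0.112). That of Polr1d ended without isthmus replicate 2 (adjusted p = 0.0589) or parietal replicate 2 (0.059), with the mean of its probe sets (0.772), by its second probe set (0.794) and without the intensity trend (0.0785). Of 9 other snoRNP genes 3 were higher and 2 lower (33.3% and 22.2%, against 15.4% and 12.2% of all genes). Nufip1 was at least 4.15-fold higher (adjusted p = 0.044), with 1 parietal array below its median, Ruvbl2 differed by 1.96 (0.0117) and Pih1d1 by -1.31 (0.0121). The call of Nufip1 ended without chief replicate 2 (adjusted p = 0.056), isthmus replicate 1 (0.137), isthmus replicate 2 (0.0974), isthmus replicate 3 (0.0547), parietal replicate 2 (0.152) or parietal replicate 3 (0.0635), after quantile normalization (0.0742), after centring (0.0799), with no filter (0.0675), without the intensity trend (0.0941) and with only these groups in the model (0.0569), and that of Pih1d1 with the mean of its probe sets (adjusted p = 0.0623) and by its second probe set (0.488). Nop10, a core protein of the same H/ACA particle as Gar1, Nhp2 and Dkc1, went the opposite way, at 12.73 to 12.95 log2 on the isthmus and 13.38 to 13.46 on the parietal arrays (-0.57, adjusted p = 0.0022, and 0.0761 without the intensity trend). Of 14 genes of the RNA exosome, which trims precursor ends, 4 were higher (28.6%, against 15.4% of all genes) and 0 lower (12.2%). The differences were 2.55 for Exosc8 (adjusted p = 0.00183), 2.31 for Mphosph6 (0.00589) and 1.75 for Dis3 (0.0444). The call of Dis3 ended without isthmus replicate 1 (adjusted p = 0.127), isthmus replicate 3 (0.151), parietal replicate 1 (0.0782), parietal replicate 2 (0.104) or parietal replicate 3 (0.0945), after quantile normalization (0.109), after centring (0.0946), with no filter (0.0699) and without the intensity trend (0.0616). The call of Exosc8 ended by its second probe set alone (adjusted p = 0.716).

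Myc, a transcription factor known to drive ribosome production, read 9.97, 10.20 and 10.18 on the log2 scale for chief arrays, 10.51, 10.99 and 10.53 in the isthmus and 9.65, 8.32 and 9.39 in the parietal arrays. Its 3 groups were apart in the same order as those of Nop58, and the isthmus minus parietal difference was 1.56 (adjusted p = 0.00814, at most 0.0364 over the alternatives, of which those on the probe set do not bear on its only one). Its partner Max differed by 2.05 (adjusted p = 0.0436), a call that ended without isthmus replicate 1 (adjusted p = 0.141), isthmus replicate 2 (0.0639), isthmus replicate 3 (0.0925), parietal replicate 1 (0.0681) or parietal replicate 3 (0.163), after quantile normalization (0.098), after centring (0.0928), with no filter (0.0671) and without the intensity trend (0.0528). Of its antagonists, a pair went the other way, with Mxi1 lower in the isthmus arrays by 2.01 (difference -2.01, adjusted p = 0.000569) and Mxd4 by 1.23 (-1.23, 0.00441), while Mxd1 and Mnt, antagonists too, were higher by 1.32 and 1.91 (0.0229 and 0.0413). The call of Mxd1 ended without isthmus replicate 3 (adjusted p = 0.0912), parietal replicate 2 (0.0601) or parietal replicate 3 (0.0913) and after centring (0.0919), and that of Mnt without chief replicate 3 (adjusted p = 0.0512), isthmus replicate 1 (0.053), isthmus replicate 2 (0.151), isthmus replicate 3 (0.0695), parietal replicate 1 (0.113) or parietal replicate 2 (0.155), after quantile normalization (0.0709), after centring (0.0722), with no filter (0.0634), with the mean of its probe sets (0.296), without the intensity trend (0.09) and with only these groups in the model (0.0573). The call of Mxd4 ended by its second probe set (0.34) and with the mean of its probe sets (0.304). Of the 10 genes of this list, 4 were called higher and 2 lower. Mxd4 was also lower in the isthmus than in the chief arrays (-1.41, adjusted p = 0.0271), a call that ended without chief replicate 1 (adjusted p = 0.114), chief replicate 3 (0.0586) or isthmus replicate 2 (0.0609), after centring (0.081), with the mean of its probe sets (0.175), by its second probe set (0.141), without the intensity trend (0.133) and with only these groups in the model (0.0665).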

How the data were processed

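Total RNA of 9 samples was hybridised to Affymetrix arrays, 1 array a sample. The authors deposited values for 45037 probe sets, made with MAS5 per the submitters' processing notes, which name no log step. The deposited values are taken as log2 because, so read, the 2% trimmed means of the linear signals were alike, 496.2 to 497.2, while array medians ran from 5.80 to 6.70 log2. For other upstream settings, the sources used here give nothing. The precision is limited by the number of arrays, and no batch was given in the labels.

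Probe sets were named by the platform annotation. Of them, 34945 named 1 gene, 932 several and 9160 none, and of the first 34741 matched RefSeq on GRCm38.p6 with 0 symbols changed. Genes were tested where 3 or more of the 9 arrays had a signal over that array's median (11006 genes). The deposited log2 values went unchanged into limma 3.58.1 (R 4.3.3; lmFit, contrasts.fit and eBayes with intensity trend; 3 group means, 6 residual degrees of freedom, two-sided, Benjamini-Hochberg adjustment over all genes tested), and an adjusted p under 0.05 is a call. The fit was tested on simulated data. Adjusted p-values in the text are from limma. A fold against a group with an array below its median is a lower bound with that array set to the median.

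All 48 genes may be named. Values on every array are given, within each role, for the gene with the highest mean and up to 4 with the lowest adjusted p, and others by range and counts. Of each other list of the pathway, up to 3 called genes with the largest differences between isthmus and parietal are named, and any further ones were chosen after their values were seen. The genes, lists and alternatives were chosen with earlier results of these data known. Listed genes without a probe set naming them alone (Polr1f, Polr1g, Polr1h, Cebpz, Gnl1, Snu13, Muc6, Ccnb1 and Hbb-b1) were not analysed here. The replicate numbers of the titles were not taken to pair the samples, since no correlation of same-numbered deviations was over 0.1. Alternatives were 22 in number, of which 9 left out 1 array each.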

Additional observations from a re-analysis of the deposited data

How the results depend on the processing

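Of the nucleolar genes called, 5 of 21 between isthmus and parietal (Nop56, Nop58, Gar1, Gnl3 and Ddx21) and 0 of 9 between parietal and chief kept their calls under all alternatives that bear on them, which are 22 for Nop56 and Ddx21 and 20 for Nop58, Gar1 and Gnl3, which have 1 probe set. Centring each array gave 3, 3 and 10 nucleolar genes called for isthmus minus chief, parietal minus chief and isthmus minus parietal, medians of 0.89, 0.21 and 0.68, and 32 genes above 0 for parietal minus chief. The counts are not set against the shares of all genes under centring. For parietal minus chief the median of all genes then lay above that of the nucleolar genes, so the 32 are no rise particular to them. Of the 3 called for parietal minus chief, Heatr1 was lower, and Wdr12 (1.83) and Rrs1 (0.64) were higher. Among the genes called with or without centring, those that turned there were Ncl (0.18), Npm1 (0.11) and Rrs1 (0.64). With the second probe set where a gene had one, 2 and 10 genes were called in the last 2 comparisons. Of these, 1 (Nop58) and 4 (Nop58, Gar1, Nob1 and Gnl3) kept their only probe set. For parietal minus chief 13 genes were then above 0, and of the called genes Heatr1 turned (0.82). Of the called genes, the mean of probe sets turned Bop1 for isthmus minus parietal (-0.54). Without the intensity trend 5 were called for parietal minus chief. Leaving out 1 array gave 0, 4 to 9 and 13 to 21 nucleolar genes called, medians of 0.45 to 0.61, -0.60 to -0.40 and 0.86 to 1.10, and 5 to 10 genes above 0 for parietal minus chief. The fewest were called without chief replicate 3 and without isthmus replicate 3. Without both chief replicate 3 and parietal replicate 1, 2 were called for parietal minus chief.

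Of all genes, 182 were called for isthmus minus chief, against 276 after centring, 316 with a pseudocount of 64, 293 floored at the array median, 95 without the filter, 118 with the mean of probe sets, 99 with the second probe set, 43 without the trend, 91 with only these groups, 50 without chief replicate 3 and parietal replicate 1, and 19 (without chief replicate 1) to 163 without 1 array. For parietal minus chief it was 1601 without both arrays and 1909 to 2614 without 1 array, against 2664. The cause of these shifts was not tested. With the replicate number as a block, 0, 8 and 22 nucleolar genes were called. Same-numbered arrays correlated by -0.04 to 0.07 over 9 pairs and shared the best match in 8 of 18 cases. A pairing by number was thus not seen, but so few arrays cannot exclude one.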

Other observations

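Mrto4, a factor that recruits proteins to the early large subunit, had no probe set of its own. The probe set it shares with 2 pseudogenes read 9.44, 9.21 and 9.78 log2 on the chief, 11.08, 10.35 and 10.01 on the isthmus and 9.92, 8.75 and 10.01 on the parietal arrays. The isthmus arrays lay above the chief arrays and overlapped the parietal arrays, at 10.01 in both. Which of the transcripts the signal came from cannot be told apart, and the probe set was not tested.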
